A study of Mus musculus with 69 samples.

Results

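Hearts of mice injected with potassium cyanide (KCN) were compared with hearts of mice injected with saline, both taken 1 h after the injection. The comparison rests on 8 of the 69 arrays of the study, the 4 labelled KCN at 1 h and the 4 labelled saline at 1 h, and on every probe set bright enough to be tested. All animals were adult male CD-1 mice, an outbred stock, of 20 to 35 g, injected or exposed while awake. KCN was given under the skin at 8.0 mg/kg, and the saline mice received a matched volume by the same route. Other hearts were taken 2, 4, 8 and 24 h after injection, and a separate arm inhaled hydrogen cyanide (HCN) at 327 ppm or air through the nose only. Each array held RNA from the heart of 1 mouse, with all its cell types together, so fewer cells of a type and less RNA per cell cannot be told apart.

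Cyanide blocks cytochrome c oxidase, which hands electrons to oxygen in mitochondria, and so stops cells from using oxygen. Heart muscle draws nearly all of its energy from respiration, and poisoned animals also respond with a surge of adrenaline and a changed blood pressure and heart rhythm. The first transcripts to answer such a stimulus are the immediate early genes. They are switched on by transcription factors that are already present in the cell, such as CREB and serum response factor, and need no newly made protein. Many of them encode transcription factors themselves, with unstable RNAs that disappear again soon after the stimulus. Others encode brakes that shut the signal off.

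The arrays were Affymetrix mouse arrays with several short probes per probe set, and a gene is often covered by more than 1 probe set. Levels are the authors' log2 signals, so that a difference of 1 is a doubling. Of 45141 probe sets, 26755 were tested, of which 19917 carried a single gene symbol, for 12432 genes. Pairwise correlations of the 8 arrays over all probe sets were 0.986 to 0.994, and the number of arrays limits the precision. Changes are KCN minus saline ± SE from limma, fitted on all 69 arrays, with n = 4 against 4. A change is called, and written as "rose" or "fell", where its adjusted p was below 0.05. The summed level of 7 ventricular muscle markers was 15.75 to 15.85 in KCN hearts and 15.80 to 15.83 in saline hearts, and none of those markers passed the test (0 of 7 also at an unadjusted p under 0.05). A control for RNA integrity, the log2 signal of the actin probe set at the 3' end minus that at the 5' end, differed between the groups. It was 0.489, 0.487, 0.568 and 0.374 in the KCN arrays, against 0.803, 1.06, 0.857 and 0.644 in the saline arrays. The groups did not overlap, and the difference of -0.361 had an exact two-sided permutation p of 0.0286, the smallest that 4 against 4 arrays can give, or 0.0571 adjusted over the actin and Gapdh ratios. The Gapdh ratio averaged 0.038 ± 0.059 in KCN arrays and 0.0066 ± 0.049 in saline arrays (SD, exact permutation p = 0.429). Several probe sets of a gene are therefore set side by side below.

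At 1 h, 1095 probe sets differed between KCN and saline hearts, 4.09% of those tested. Of these, 419 (1.57%) rose and 676 (2.53%) fell. The rises were the larger changes at the upper end: 85 probe sets rose at least 2-fold and 70 fell at least 2-fold, while the median size was 0.63 among rises and -0.51 among falls. The 4 KCN arrays did not overlap the 4 saline arrays in 356 of the rises and 603 of the falls, and the same was true of 14% of all probe sets tested (6.53% with KCN higher and 7.43% with KCN lower). In terms of genes, 317 had a probe set that rose and 447 had one that fell. With each of the 12432 genes read from its brightest probe set, 1.73% rose and 2.52% fell. The list counts below are to be read beside these shares. The median change of all tested probe sets was -0.0088. An unadjusted p under 0.05 was reached by 4825 of the 26755 probe sets tested, in either direction. The unadjusted counts given for lists below are to be read beside that share. Against the mean of all 5 saline groups, 6.4% of probe sets differed at KCN 1 h, with 3.37% higher and 3.03% lower. These were in part other probe sets: 259 of the 419 rises and 344 of the 676 falls were also called there in the same direction. All 4 KCN hearts lay below all 18 saline hearts in 6.07% of the falls, and in 0.243% of all probe sets tested. A probe set that rose carried a single gene symbol in 83.3% of cases and one that fell in 69.8%, against 74.4% of all tested.

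Apart from airway and immunoglobulin transcripts, the largest rises belonged mostly to immediate early genes. Among 11 measured members of the AP-1 and Atf3 list 6 rose and 0 fell, with a median change of 1.02, while 1.73% of all 12432 genes rose when each was read from its brightest probe set. The lists were chosen with earlier results of these data known, so such counts are no independent test. Atf3, a transcription factor induced by many kinds of stress, had levels of 10.54, 10.80, 10.70 and 10.08 in KCN hearts, against 6.13, 8.07, 7.39 and 7.33 in saline hearts. It rose by 3.30 ± 0.41 (adjusted p = 4.4e-08), and its lowest KCN heart lay well above its highest saline heart. Fos, the classical partner of Jun in the AP-1 factor, had 10.55, 11.21, 11.80 and 9.06 in KCN hearts and 6.83, 7.84, 8.96 and 8.36 in saline hearts. It rose by 2.66 ± 0.60 (adjusted p = 0.0051), but the lowest KCN heart and the highest saline heart nearly met. Fosb and Junb, other AP-1 subunits, rose by 1.82 ± 0.26 and 1.73 ± 0.32. Jun itself is covered by 2 probe sets, which rose by 1.40 ± 0.22 and by 0.80, the second with overlapping groups.

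The Egr, Ier and Nr4a list, mostly zinc finger factors and orphan nuclear receptors, had 5 of 11 measured members higher and 0 lower, with a median change of 1.00, or 0.56 over all of their probe sets. Egr1, a zinc finger transcription factor, had 9.98, 10.17, 11.77 and 8.60 in KCN hearts and 7.40, 7.81, 8.32 and 7.13 in saline hearts, a rise of 2.46 ± 0.41 (adjusted p = 3.9e-05). All 4 KCN hearts were above all 4 saline hearts, with replicate 4 the lowest KCN heart and replicate 3 the highest. Egr2, its close relative, stood at 5.72, 6.25, 6.89 and 3.91 in KCN hearts, against 3.19, 3.31, 3.44 and 3.27 in saline hearts, near the lower end of the array's range. Its 2 probe sets rose by 2.39 ± 0.30 and 2.24. The bright probe set of Nr4a3, another member of the list, read 9.15 to 10.24 in KCN hearts, against 7.14, 7.10, 7.81 and 7.22 in saline hearts (2.56 ± 0.45). The other 2 probe sets of Nr4a3 were dim, at 3.22 and 3.24 in KCN hearts against 2.65 and 3.08 in saline hearts, and changed by 0.56 (called) and 0.16 (not called). Nr4a2 had 4 probe sets, of which 3 rose, the largest by 1.49 ± 0.33. Nr4a1 was higher in all 4 KCN hearts, by 1.35 ± 0.43, and just missed the threshold (adjusted p = 0.057). Ier2, an immediate early protein of the nucleus, rose by 1.00 ± 0.22, though its lowest KCN heart (7.40) lay among the saline hearts (7.13 to 7.71), and the call was lost without KCN replicate 3 (0.59).

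In the Zfp36, Btg and Gadd45 list, of genes that slow growth or destabilise RNA, 3 of 8 measured members rose and 0 fell, with a median change of 0.34. Gadd45b, which binds and activates stress kinases, had 8.17, 8.32, 9.41 and 7.77 in KCN hearts, against 6.10, 5.63, 6.29 and 6.03 in saline hearts, and rose by 2.40 ± 0.27. Gadd45g, of the same family, rose by 1.96 ± 0.25. Btg2, an antiproliferative protein that promotes the removal of poly(A) tails, rose on both of its probe sets, by 2.00 ± 0.50 and 2.13 ± 0.30, though the first did not pass without KCN replicate 3 or saline replicate 2. Of the Dusp, Sprouty and related signalling brakes 1 of 13 rose: Errfi1, an inhibitor of the EGF receptor, by 1.22 ± 0.28, a call lost without KCN replicate 3 and when Scgb1a1 and Bpifa1, of airway cells, entered as a covariate. Dusp1, a phosphatase that inactivates MAP kinases, changed by 0.70 ± 0.24 without passing (adjusted p = 0.082), and lay between 10.10 and 12.27 in KCN hearts against 10.19 to 10.67 in saline hearts. No Kruppel-like factor among 9 passed (limma, 2 higher and 1 lower at an unadjusted p under 0.05), with Klf4 at 0.70 ± 0.24 (adjusted p = 0.081).

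**Figure D1:**
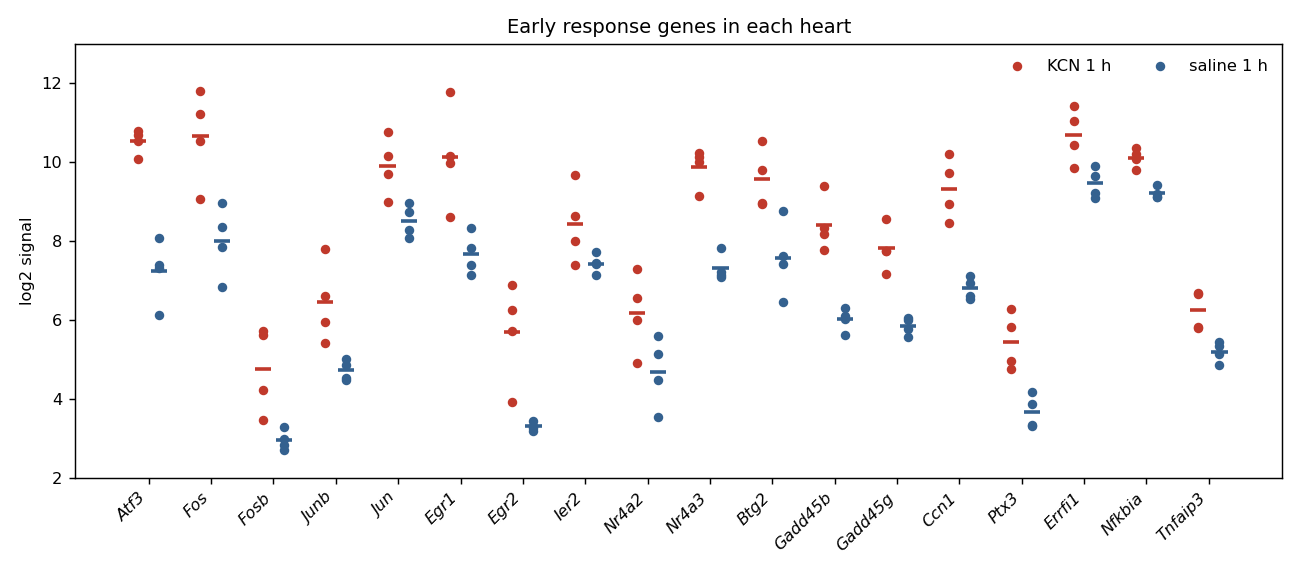
Log2 signal (y axis) of 18 early response genes in each heart, with 1 point per array and a bar at the mean, KCN 1 h in red left of saline 1 h in blue. All 18 genes passed the test, and KCN and saline points overlap for Ier2, Nr4a2 and Errfi1 only.

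Of 9 measured early secreted proteins 3 rose and 0 fell, and 6 did not pass. Ccn1, a matrix protein that binds integrins, had 8.95, 9.73, 10.20 and 8.45 in KCN hearts and 6.61, 6.52, 6.95 and 7.10 in saline hearts. Both of its probe sets rose, by 2.53 ± 0.31 and 2.47. Ptx3, a soluble pattern recognition protein, rose by 1.78 ± 0.34, with KCN hearts at 4.75 to 6.27 and saline hearts at 3.31 to 4.18. Plaur, the urokinase receptor, rose by 0.53 ± 0.16 (adjusted p = 0.042), a call lost under 11 of 20 alternative settings.

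The promoters of 4 of the genes with large rises, Atf3, Fos, Ccn1 and Gadd45b, are shown because these genes rose together. Each line gives the 150 bases before the RefSeq transcription start (build GRCm38.p6), 5′ to 3′ on the strand of the gene, with capitals for the CREB core TGACGT on either strand (ACGTCA on the other) and for TATAAA.
Atf3, chr1:191183334-191183483, minus strand: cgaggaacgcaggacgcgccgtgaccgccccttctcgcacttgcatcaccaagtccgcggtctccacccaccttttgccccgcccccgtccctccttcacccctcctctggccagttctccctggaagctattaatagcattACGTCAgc
Fos, chr12:85473740-85473889, plus strand: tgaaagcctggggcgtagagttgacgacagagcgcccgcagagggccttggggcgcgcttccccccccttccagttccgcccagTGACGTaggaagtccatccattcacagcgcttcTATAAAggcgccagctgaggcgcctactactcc
Ccn1, chr3:145649986-145650135, minus strand: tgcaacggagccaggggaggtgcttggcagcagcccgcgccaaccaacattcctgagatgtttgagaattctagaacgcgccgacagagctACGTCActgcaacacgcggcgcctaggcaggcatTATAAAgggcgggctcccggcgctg
Gadd45b, chr10:80929941-80930090, plus strand: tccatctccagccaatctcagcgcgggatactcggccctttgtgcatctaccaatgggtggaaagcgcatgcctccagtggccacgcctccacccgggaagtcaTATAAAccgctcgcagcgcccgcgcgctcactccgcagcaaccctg

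In windows of 250 bases before to 50 after the start, TGACGT on either strand was found for 6 of the 11 largest rises that have a RefSeq window (Atf3, Fos, Nr4a3, Ccn1, Egr2 and Btg2), against 12.7% of 9990 tested genes with a window. The CArG box, the motif of serum response factor, was found for 1 of them (Egr2), against 1.57% of tested genes. The AP-1 motif TGANTCA was found for 2 of the 11, against 6.51%, and the HIF core ACGTG for 3, against 28.9%. TATAAA was found for 5 of the 11, against 9.75%. Gadd45b held no TGACGT in its window. These are matches of letters and not binding sites, and the 11 genes were picked for their rise and include the airway gene Bpifa1. Bases beyond the window were not searched, so a gene without a match may still hold the motif further away.

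Several NF-kB feedback genes rose. Of 13 measured NF-kB subunits and inhibitors 4 rose and 0 fell, where 1.73% of all genes rose, with a median change of 0.14 for the list. Nfkbia, the inhibitor that holds NF-kB in the cytoplasm and is itself an NF-kB target, stood at 10.08, 10.37, 10.20 and 9.80 in KCN hearts, against 9.11, 9.19, 9.43 and 9.11 in saline hearts, and rose by 0.90 ± 0.15 (adjusted p = 3.6e-05). Tnfaip3, which removes ubiquitin chains from the signalling complex, rose by 1.05 ± 0.23 on its bright probe set, while a dim one near 3 did not pass. Nfkbiz, a nuclear co-regulator, rose by 1.14 ± 0.27, but by 0.56 and without passing when KCN replicate 3 was left out. Rel, a subunit, rose by 0.69 ± 0.21 (adjusted p = 0.042), a call lost under 11 of 20 alternative settings.

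Among 13 measured chemokines and cytokines 1 rose, Cxcl1, which attracts neutrophils. It stood at 3.86, 4.14, 6.52 and 3.21 in KCN hearts and 2.95, 3.51, 3.01 and 2.87 in saline hearts, so that replicate 3 held most of the rise of 1.35 ± 0.32. Without that heart the change was 0.66 and no longer passed. Of 10 genes of IL-6 family signalling 2 rose: Pim1, a survival kinase, by 1.42 ± 0.26, and Socs2, a feedback inhibitor of growth hormone signalling, by 0.58 ± 0.15. The Socs2 call was lost under 7 of 21 alternative settings, and its other 3 probe sets changed by 0.38, 0.0012 and -0.0023 without passing.

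Across the 8 early response lists, chosen with earlier results of these data known, 23 genes rose. Replicate 3 was the highest KCN heart in 15 of the 23 genes, and replicate 4 the lowest in 19. The median excess over the saline mean was 1.29, 1.86, 2.72 and 0.61 in KCN replicates 1 to 4. In 13 of the 23 genes all 4 KCN hearts lay above all 18 saline hearts of the study, whatever their time. The same held for 20.0% of all 419 rises and for 0.497% of all probe sets tested, of which the 4 saline arrays of the comparison are part.

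Blood vessel and heart muscle stress genes contained a few marked rises. For the counts in this paragraph, 1.73% of all genes rose and 2.52% fell. Of 15 endothelial activation genes 2 rose and 1 fell. Adamts1, a secreted protease, rose by 1.56 ± 0.25, with KCN hearts at 8.78 to 10.16 and saline hearts at 7.50 to 8.29. Apold1, an early response gene of endothelium, rose by 1.97 ± 0.43 over a wide range of 6.64 to 10.76 in KCN hearts against 6.23 to 7.47 in saline hearts, and by 1.28 without KCN replicate 3, where the call was lost. Sox18, an endothelial transcription factor, fell by 0.89 ± 0.20 and did not pass without KCN replicate 3. Of 11 vasoactive and adrenergic genes 3 rose: Agt, the precursor of angiotensin, by 1.29 ± 0.32, Edn1, the vasoconstrictor endothelin 1, by 0.64 ± 0.17, and its receptor Ednrb by 0.57 ± 0.14. Without KCN replicate 2 none of these 3 calls held, and that of Edn1 was lost under 9 and that of Ednrb under 5 of 21 alternative settings. Of 12 genes of cardiac stretch and stress 2 rose: Xirp1, an actin-binding protein of the intercalated disc, by 0.80 ± 0.21, and Myc, a growth transcription factor, by 0.99 ± 0.21. The call of Xirp1 was lost without KCN replicate 3. Nppb, the natriuretic peptide gene, changed by 0.69 ± 0.24 (adjusted p = 0.082), from levels of 11.88 to 12.30 in KCN hearts against 10.97 to 11.97 in saline hearts.

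Transcripts of the enzymes on which cyanide acts were nearly level. None of 17 measured genes of cytochrome c oxidase, subunits and assembly factors together, passed (limma). At an unadjusted p under 0.05, 0 of them were higher and 3 lower, where 4825 of all 26755 probe sets reached that level in either direction. Their median change was -0.05, with a range of -0.21 to 0.22. Cox4i1, a structural subunit, was at 13.01, 13.06, 12.99 and 13.08 in KCN hearts and 13.09, 13.03, 13.01 and 13.05 in saline hearts. Of 29 measured genes of the complex I list 1 rose, Ndufb3, by 0.30 ± 0.07, and 0 fell. That call was lost without KCN replicate 2 or saline replicate 2, and also against the mean of the 5 saline groups. Of 23 genes of complexes II and III and of ATP synthase 0 rose and 1 fell, Sdhc, a membrane anchor of succinate dehydrogenase, by 0.39 ± 0.08. The citric acid cycle list had 3 of 15 members lower and 0 higher, against 2.52% of all genes lower, and the falls were small. Cs, citrate synthase, had 12.07, 12.04, 12.01 and 12.13 in KCN hearts and 12.25, 12.35, 12.23 and 12.33 in saline hearts, and fell by 0.23 ± 0.05 on 1 of 3 probe sets. Idh2, the mitochondrial isocitrate dehydrogenase, fell by 0.28 ± 0.07. Mdh2, malate dehydrogenase, fell on both probe sets, by 0.18 ± 0.05 and 0.25. The calls of Idh2 and of the brighter Mdh2 probe set were lost without saline replicate 2 and with the airway covariate, that of Idh2 also without KCN replicate 2 or saline replicate 4. That of Mdh2 was also lost against the mean of the 5 saline groups.

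None of 14 glycolysis genes, 17 fatty acid oxidation genes or 8 genes of cyanide and sulfide detoxification passed (limma). At an unadjusted p under 0.05, 3 of the glycolysis genes were lower and 0 higher, 2 of the fatty acid oxidation genes were lower and 1 higher, and 0 of the detoxification genes moved either way. Tst, rhodanese, which turns cyanide into thiocyanate, changed by 0.03 ± 0.25, and Mpst, which can do the same with another sulfur donor, by 0.03 ± 0.13.

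None of the listed genes of the low oxygen response was called higher. Among 18 measured targets of hypoxia-inducible factor 0 rose and 1 fell (limma, 1 higher and 5 lower at an unadjusted p under 0.05), with a median change of -0.11. The fall was that of Ankrd37, at 3.33, 3.32, 3.79 and 4.16 in KCN hearts against 5.77, 5.09, 5.31 and 5.59 in saline hearts, a change of -1.79 ± 0.27 (adjusted p = 4.2e-06) on its only probe set. Pdk1, a kinase that shuts pyruvate out of mitochondria, was lower in all 4 KCN hearts, by -0.53 ± 0.17, without passing (adjusted p = 0.059), and its other 2 probe sets changed by -0.13 and 0.14. Of 14 integrated stress response genes 1 rose, Ppp1r15a, which restarts translation, by 0.69 ± 0.21 (adjusted p = 0.049), a call lost under 15 of 21 alternative settings, while Atf4, the central factor of that response, changed by 0.26 ± 0.12. At an unadjusted p under 0.05, 4 of the 14 were higher and 0 lower, and in 5 all KCN hearts lay above all saline hearts, as in 6.53% of all probe sets. None of 12 heat shock genes, 13 NRF2 targets, 14 glucocorticoid-responsive genes or 15 clock genes passed (limma). At an unadjusted p under 0.05, 1 heat shock gene was higher and 1 lower, 1 glucocorticoid-responsive gene was higher, and 0 of the NRF2 targets or clock genes moved. Hmox1, haem oxygenase, changed by 0.21 ± 0.30, and Per1, a clock gene that glucocorticoids raise, by 0.20 ± 0.39.

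Among 13 potassium channel genes 1 fell and 0 rose, where 2.52% of all genes fell. Kcnj11 encodes the pore of the ATP-sensitive potassium channel, which opens when ATP runs low. It stood at 5.28, 5.06, 5.09 and 5.19 in KCN hearts, against 5.95, 6.19, 6.15 and 5.84 in saline hearts, and fell by 0.88 ± 0.14 (adjusted p = 3.6e-05). The groups were well apart, but its dim second probe set changed by -0.28 without passing. None of 11 calcium handling genes passed (limma, 0 higher and 3 lower at an unadjusted p under 0.05).

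**Figure D2:**
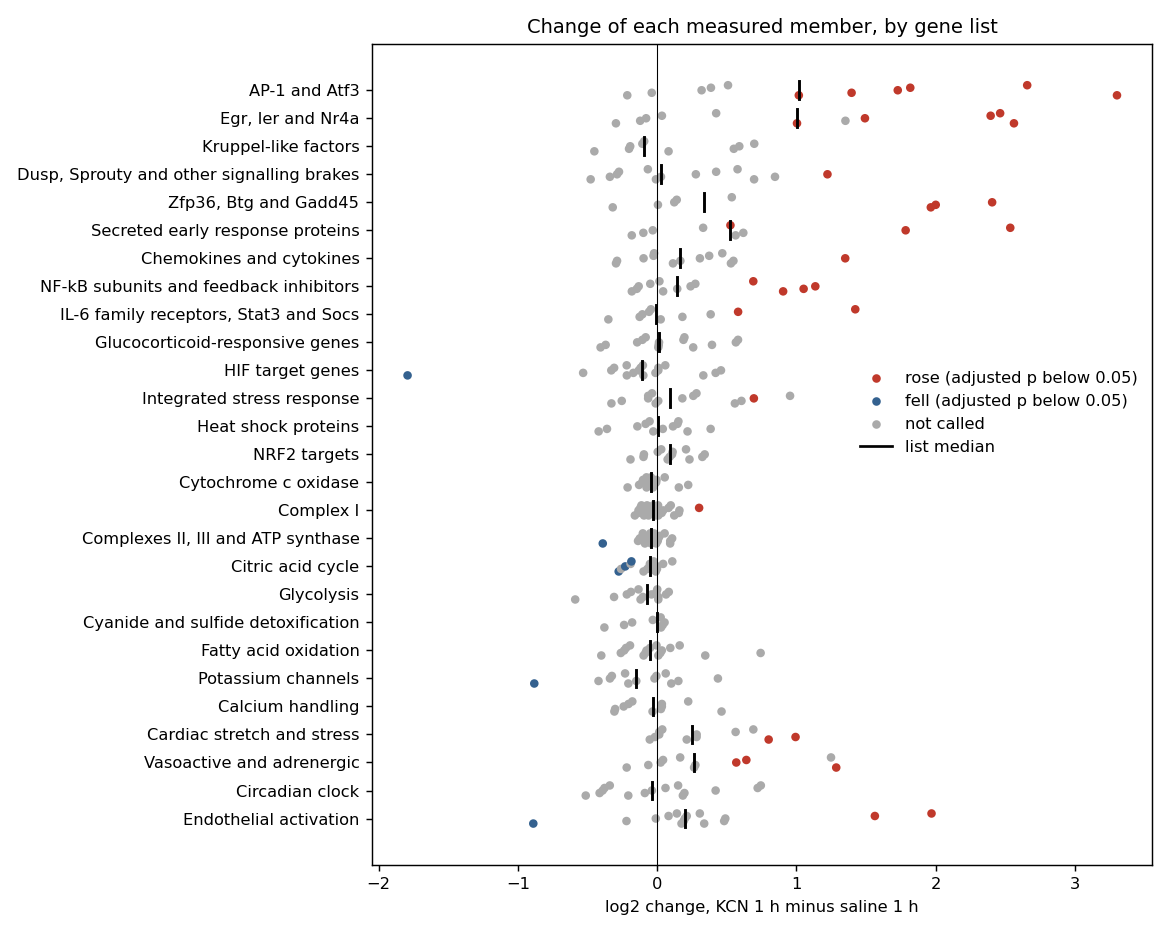
Log2 change, KCN 1 h minus saline 1 h (x axis), of each measured member of 27 gene lists (rows), with red points for members that rose, blue for members that fell, grey for the rest and a black line at the list median. Most changes over 1 are in the early response lists near the top, and members of the respiratory lists lie between -0.39 and 0.30.

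Where a gene has several probe sets, they can be read against each other. Of 4876 such genes, 24 had at least 2 probe sets that rose, 24 at least 2 that fell, and 5 had calls in both directions. Besides Ccn1, Egr2, Btg2 and Jun, those that rose on several included Txnip, Plek and Tmcc3. Txnip, an inhibitor of thioredoxin and of glucose uptake, was at 11.01, 10.91, 11.05 and 10.93 in KCN hearts against 9.98, 9.93, 9.81 and 10.46 in saline hearts. It rose by 0.93 ± 0.21 and, on its second probe set, by 1.55. Plek, a signalling protein of blood cells, rose by 1.00 ± 0.24 and 1.31 on 2 of 3 probe sets, the first not without KCN replicate 2. Tmcc3, a membrane protein of the endoplasmic reticulum, rose on all 5 probe sets, by 0.57 to 2.19.

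The falls seen on several probe sets were moderate in size. Rsrp1 and Pnisr encode nuclear proteins rich in arginine and serine. Rsrp1 was at 7.16, 7.43, 7.97 and 7.97 in KCN hearts, against 8.87, 8.39, 9.03 and 8.88 in saline hearts, and its 3 probe sets changed by -1.16 ± 0.26, -1.16 and -1.07, of which the first 2 passed. The call of its brightest probe set was lost against the mean of the 5 saline groups. Pnisr fell on both probe sets, by 1.02 ± 0.23 and 0.83. Aplnr, the receptor of the peptide apelin, which strengthens the heartbeat and widens vessels, had 7.07, 7.65, 7.85 and 7.49 in KCN hearts and 9.22, 9.28, 8.91 and 8.04 in saline hearts. It fell on both probe sets, by 1.35 ± 0.28 and 0.70. Dag1, dystroglycan, which ties the muscle cell to its matrix, fell on all 3, by 0.38 to 0.79. Atp1b1, the beta subunit of the sodium pump, fell by 0.36 ± 0.08 and by 0.38 on 2 of 3. Gab1, a docking protein of growth factor receptors, fell on 2 of 3 probe sets, by 0.53 ± 0.12 on the brightest. That call was lost without saline replicate 2 and against the mean of the 5 saline groups. Dusp7, a MAP kinase phosphatase, fell by 0.78 ± 0.19 and 1.01 on 2 of 3 probe sets, the first not with the airway covariate. Btbd3 fell by 0.84 ± 0.17 and 0.71 on both of its 2.

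The largest falls of all were of another kind. Pttg1ip, a membrane protein that binds securin, had 2.97, 3.12, 2.91 and 2.71 in KCN hearts and 6.04, 5.98, 6.30 and 5.73 in saline hearts on 1 probe set, a change of -3.09 ± 0.26. Its other 2 probe sets were bright, at 9.64 and 9.81 in KCN hearts and 9.61 and 10.02 in saline hearts, and changed by 0.03 and -0.21. Ndufab1, the mitochondrial acyl carrier protein and a subunit of complex I, fell by 2.98 ± 0.29 on a single probe set, while the one of highest level stood at 12.40 in KCN hearts and 12.43 in saline hearts. Rab2a, a small GTPase of early secretion, fell by 2.42 ± 0.25 and 2.04 on 2 of 6 probe sets, while 3 brighter ones changed by 0.02 to 0.16 and the dim sixth by -0.31. Hspb1, a small heat shock protein, fell by 2.04 ± 0.25 and 1.61 on a dim pair of probe sets, while its bright pair changed by 0.22 and 0.23. The first of these falls did not pass against the mean of the 5 saline groups. Mfn1, which fuses mitochondria, fell by 2.24 ± 0.26 on a probe set that read 2.85 in KCN hearts and 5.09 in saline hearts, and the other 2 probe sets did not pass.

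The comparison was extended to all called probe sets of such genes. Among 24 probe sets that rose at least 2-fold in genes with several probe sets, the other probe sets of the gene had a median change of 0.66, and in 22 they moved the same way. Among 41 that fell at least 2-fold, the others had a median change of -0.04, and in 23 they moved the same way. For calls of any size the others moved the same way for 75.2% of 226 rises and 68.3% of 322 falls, and another probe set of the gene was called the same way for 24.8% of the rises and 15.2% of the falls.

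**Figure D3:**
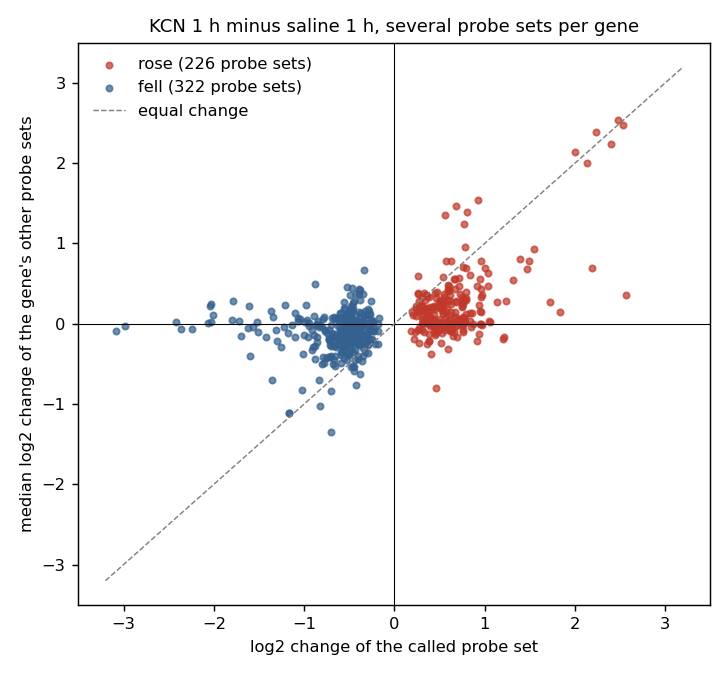
Each point is a called probe set of a gene with several tested probe sets, with its own log2 change, KCN 1 h minus saline 1 h, on the x axis and the median change of the gene's other probe sets on the y axis (red rose, blue fell, dashed line equal change). Of 24 rises of at least 2-fold, the other probe sets lie above 0 in 22, and for 41 falls of that size their median is -0.04.

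The 15 largest falls by single probe set, of which Ankrd37 is one, had a mean level of 4.03 in KCN hearts at 1 h (up to 4.29) and 6.17 in saline hearts at 1 h (6.01 to 6.31). Beyond 1 h the mean level in saline hearts was 3.82 (2 h), 3.87 (4 h), 4.61 (8 h) and 6.37 (24 h). KCN hearts at those times had means of 4.03, 4.84, 4.06 and 4.12, so that the 1 h and 24 h saline hearts stood apart from all KCN groups and from the 2 h and 4 h saline hearts. None of the 15 probe sets had all 4 KCN hearts at 1 h below all 18 saline hearts. At 24 h, where no array is shared with 1 h, 14 of the 15 fell after KCN, and Ankrd37 did not (0.16). The background there is 5.14% of probe sets lower. At 2 h none passed in either direction, and the changes ran from -0.29 to 0.70. The actin ratio was 0.841 in saline hearts at 1 h and 0.878 at 24 h, but also 0.860 at 4 h, where these probe sets were low. With the ratio of each array as a covariate, 355 probe sets rose and 453 fell.

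Transcripts of airway lining cells were high in all 4 KCN hearts and in none of the saline hearts at 1 h. Scgb1a1, the club cell secretory protein, had 11.30, 10.99, 11.36 and 11.99 in KCN hearts, against 3.08, 2.54, 3.05 and 2.98 in saline hearts. It rose by 8.50 ± 2.43 (adjusted p = 0.031), the largest change of all probe sets tested. Bpifa1, Scgb3a2 and Scgb3a1, secreted proteins of airway cells, rose by 8.34, 7.90 and 7.13, and Sec14l3, a lipid-binding protein, by 4.68 on 1 of 3 probe sets. The SE comes from all groups, several of which held both high and low arrays, and the calls of Scgb1a1, Bpifa1, Scgb3a2 and Sec14l3 were lost when any of the 8 arrays was left out. Of 8 measured lung and airway markers 4 rose and 0 fell, and their summed level was 12.97 to 13.79 in KCN hearts and 6.06 to 6.10 in saline hearts. Foxj1, of ciliated cells, stayed at 2.62 in KCN hearts and 2.66 in saline hearts. The mean level of the 5 transcripts was above 7 in 2 of 4 KCN hearts at 2 h, 3 of 3 at 4 h, 3 of 4 at 8 h and 3 of 4 at 24 h, against 0 of 3, 0 of 3, 2 of 4 and 1 of 4 saline hearts. It was above 7 in 3 of 4 HCN hearts and 3 of 4 air hearts at 1 h. Igkj1, an immunoglobulin light chain segment, rose by 3.41 ± 0.94, a call lost without KCN replicate 1, 2 or 4 or saline replicate 4. The part of this RNA in the other results was not tested directly. With the level of Scgb1a1 and Bpifa1 as a covariate 320 probe sets rose and 430 fell, and Atf3, Fos, Egr1, Ccn1 and Gadd45b were still called.

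Other cell type markers moved less, and their counts stand beside 1.73% of all genes that rose and 2.52% that fell. Adipoq, the fat cell hormone, was at 8.88, 9.05, 9.74 and 10.69 in KCN hearts and 6.11, 7.23, 8.19 and 7.75 in saline hearts, a change of 2.27 ± 0.85 that did not pass (adjusted p = 0.12). The summed level of 5 adipocyte markers was 9.28 to 11.24 in KCN hearts and 7.15 to 8.83 in saline hearts, and 0 of 5 passed (limma, 1 higher at an unadjusted p under 0.05). All 10 macrophage markers were nominally higher, with a median of 0.29, and 1 rose, C1qb of the complement system, by 0.49 ± 0.15. The 7 platelet markers had a median of 0.32, and 1 rose, Pf4, platelet factor 4, by 0.62 ± 0.18. Of 8 endothelial markers 1 rose, Emcn, by 0.43 ± 0.13, and of 6 smooth muscle and pericyte markers 1 fell, Rgs5, by 0.26 ± 0.08. The calls of C1qb, Pf4, Emcn and Rgs5 were each lost under at least 9 of 21 alternative settings. No marker of fibroblasts (7), atrial muscle (5), neutrophils (6), lymphocytes (6), erythroid cells (3), skeletal muscle (5) or Schwann cells (4) passed (limma). At an unadjusted p under 0.05, 1 fibroblast, 2 lymphocyte and 2 Schwann cell markers were higher and 0 of these lists' members were lower.

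The change at 1 h was then set against the inhalation arm at the same time, which shares no arrays with it. All 23 early response genes that rose after KCN also rose after HCN at 1 h, where 1.38% of all probe sets were higher. Their median change was 2.58 after HCN, and 22 of the 23 had the larger change there. The difference itself passed in 4 of them, where 0.164% of all probe sets had a smaller change after KCN and 0.0336% a larger one. Cxcl1 changed by 1.35 after KCN and 4.53 after HCN, Fosb by 1.82 after KCN and 4.15 after HCN, Nfkbiz by 1.14 after KCN and 3.32 after HCN, and Ier2 by 1.00 after KCN and 2.49 after HCN. For Egr1, at 2.46 after KCN and 4.73 after HCN, the difference did not pass (adjusted p = 0.074). Gadd45b had 2.40 after KCN and 1.95 after HCN. The 23 genes were chosen for their rise after KCN. Over all 87 measured members of the 8 early response lists, 39 were higher and 1 lower after HCN at 1 h. Of those higher, 16 had not risen after KCN at 1 h.

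Over all probe sets, 113 of the rises were also higher after HCN, which is 27.0% of the rises after KCN and 30.6% of those after HCN. Of the falls 90 were also lower, which is 13.3% of the falls after KCN and 25.8% of those after HCN, where 1.3% of all probe sets were lower. The change differed between KCN and HCN in 53 probe sets (0.198%), among them 14 of the rises and 23 of the falls. Of the 15 largest falls, 6 differed and 2 also fell after HCN. Kcnj11 changed by -0.20 after HCN and Ankrd37 fell by 1.09 there, and for neither did the difference pass.

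The same genes were then read at 2 h, with the caution that they were chosen for their rise at 1 h. The saline group at 2 h had 3 arrays, and their 18S ribosomal RNA control was low, at a mean of 11.55. It was 12.89 in KCN hearts at 2 h and 13.01 in saline hearts at 1 h. What this did to the 2 h changes was not tested. After KCN at 2 h, 9 of the 23 were higher and 1 was lower, with a median change of 0.29, where 3.3% of all probe sets were higher and as many lower. Over all 87 measured members of the 8 early response lists, 17 were higher and 6 lower at 2 h, against 23 higher and 0 lower at 1 h, and 8 of those higher at 2 h had not risen at 1 h. Jun is the one that was lower. It rose by 1.40 at 1 h and fell by 1.15 at 2 h, and the difference passed (adjusted p = 9.6e-07). Fos changed by 2.66 at 1 h and by 0.00 at 2 h (difference not past the threshold, adjusted p = 0.083), and Egr1 by 2.46 at 1 h and 0.20 at 2 h (adjusted p = 0.021). Atf3 and Nr4a3 stayed high. Atf3 had changes of 3.30 and 2.87 at 1 and 2 h, and Nr4a3 of 2.56 and 3.25. The difference between the times passed in 7 of the 23 genes, each with the larger change at 1 h, where 1.52% of all probe sets differed that way. At 4, 8 and 24 h 3, 1 and 0 of the 23 were called higher, where 1.21%, 0.138% and 6.79% of all probe sets were higher. The saline hearts moved too. Fos averaged 8.00 in saline hearts at 1 h, 6.01 at 2 h and 4.67 at 4 h.

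Calls shared between 1 h and 2 h were counted over all probe sets. Of the rises 46 were also higher at 2 h, which is 11.0% of the rises at 1 h and 5.22% of those at 2 h, and of the falls 44 were also lower, which is 6.51% of the falls at 1 h and 4.99% of those at 2 h. The change differed between the times in 935 probe sets (3.49%, of which 1.97% had the lower change at 1 h), among them Kcnj11 (-0.88 at 1 h and 0.16 at 2 h), Cs (-0.23 and 0.09) and Ankrd37 (-1.79 and -0.29). At 24 h 167 of the falls were also lower, which is 24.7% of the falls at 1 h and 12.2% of those at 24 h.

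**Figure D4:**
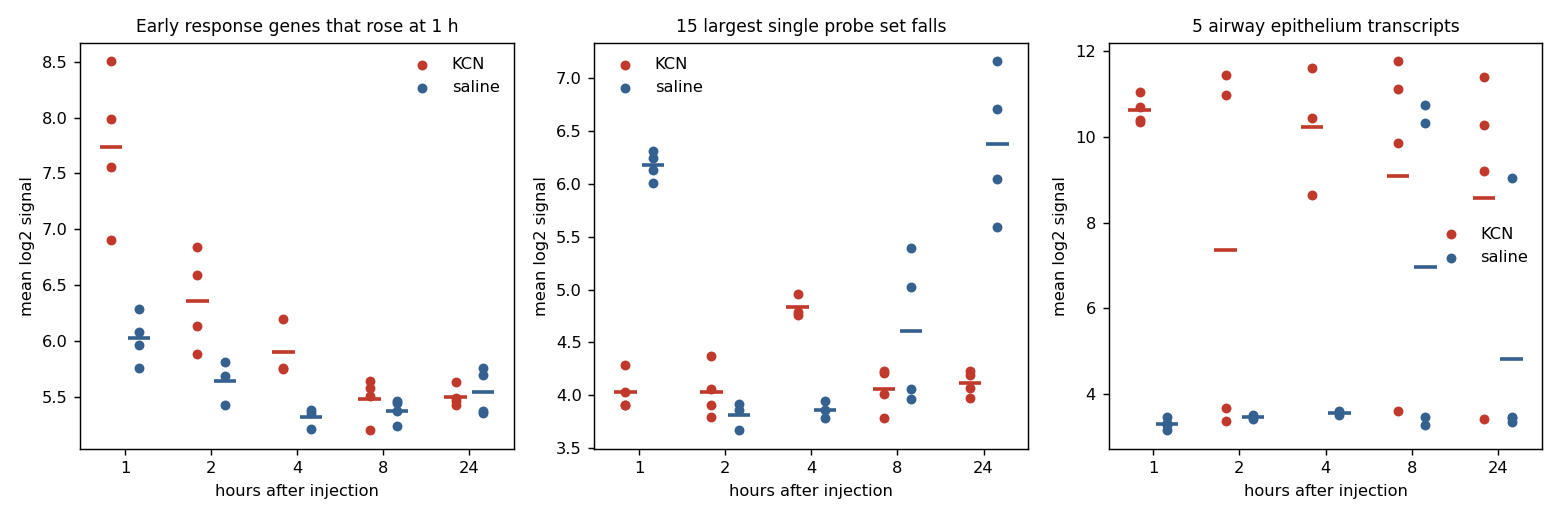
Mean log2 signal per array (y axis) by hours after injection (x axis, 1 to 24 h) for 23 early response genes that rose at 1 h, for the 15 largest single probe set falls and for 5 airway transcripts, with 1 point per array, a bar at the group mean, and KCN in red left of saline in blue. The early genes are highest at KCN 1 h, the large falls are high in saline hearts at 1 h and 24 h, and the airway transcripts are high in all 4 KCN hearts and no saline heart at 1 h.

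**Figure D5:**
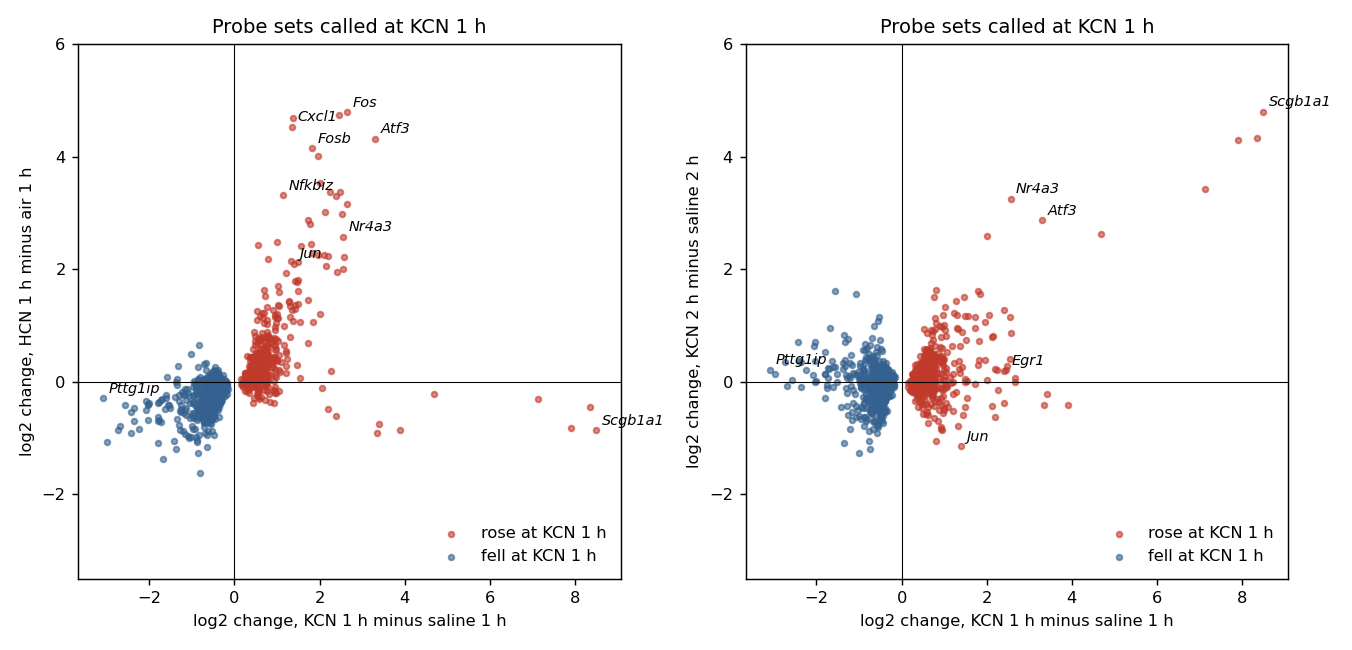
Probe sets called at KCN 1 h (red rose, blue fell), with their log2 change at 1 h on the x axis, against their change after HCN at 1 h (left) and after KCN at 2 h (right) on the y axis. In the left panel Cxcl1 reads 4.53, and in the right panel Atf3 reads 2.87, Nr4a3 3.25 and Jun -1.15.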

How the data were processed

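RNA was extracted from hearts with RNeasy Plus kits and labelled with a 3' IVT kit, per the labels' protocols, and each array is titled as a biological replicate. The deposited values are log2 signals per probe set, summarised and normalized by the authors, with MAS5 named in the submitters' processing notes without version or role. That they are log2 follows from their range, 1.83 to 13.94. Injection (37) and inhalation (32) arrays were compared only through changes within a route. Of 45141 probe sets, 104 were AFFX controls and left out, 28898 carried a single symbol, 551 several and 15588 none, from the platform annotation. Unnamed probe sets were tested and not named.

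Probe sets with at least 1 group mean above the median of all group means (3.23) were tested (26755). In R 4.3.3, with version 1.17.8 of the data.table package, limma 3.58.1 fitted 18 group means to 69 arrays (51 residual degrees of freedom), with a trended eBayes prior, two-sided, with Benjamini-Hochberg adjustment over all tested probe sets per contrast. Each gene in a list was read from its brightest tested probe set. Tables and figures were made in Python, and the fit was tested on simulated data.

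Named genes were the 15 largest rises and falls called on at least 2 probe sets, ranked by median over the probe sets, the 15 largest rises and falls by single probe set without overlap of arrays, the 5 of lowest p in a list, and 21 preset genes. The text gives a part of them, with other probe sets beside them. Foxj1, Igf1 and Ctsz were picked after their values were seen. The members and lists were chosen with earlier results of these data known. The alternatives are given in the closing section, and the airway transcripts as a covariate were added after the data were seen.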

Additional observations from a re-analysis of the deposited data

Results flagged for a closer look

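For 34 gene values the change at KCN 1 h differed from that in another comparison by a test of the difference (limma, adjusted p below 0.05). Against HCN at 1 h there were 9, each given as the KCN 1 h change minus the HCN 1 h change: -3.18 for Cxcl1, -2.80 for Pttg1ip, -2.34 for Fosb, -2.18 for Nfkbiz, -1.91 for Ndufab1, -1.88 for Rab2a, -1.62 for Hspb1, -1.51 for Pnisr and -1.48 for Ier2. Pttg1ip, Ndufab1, Rab2a and Hspb1 are read here from the dim probe sets that fell, and the brightest probe set of each changed by -0.21 to 0.22 after KCN. Pnisr fell by 1.02 after KCN and changed by 0.49 after HCN.

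Against KCN at 2 h there were 25, each given as the 1 h change minus the 2 h change. The low 18S control of the saline hearts at 2 h, given above, applies to these too. Of the early response genes, the change was larger at 1 h by 2.57 for Btg2 on 1 probe set, 2.54 for Jun, 2.26 for Egr1, 2.20 for Egr2, 2.12 for Ccn1, 1.77 for Junb, 1.43 for Fosb and 1.14 for Ier2. It was also larger by 1.95 for Tmcc3, 1.495 for Plek, 1.36 for Pf4, 1.21 for Txnip, 0.44 for Ndufb3 and 0.43 for Rps27l. All 7 measured platelet markers, of which Pf4 is one, fell after KCN at 2 h (median change -1.77), where 3.3% of all probe sets were lower. Values below 0 were -3.30 for Pttg1ip, -3.13 for Ndufab1, -2.79 for Rab2a, -2.74 for Hspb1, -2.45 for Mfn1, -1.502 for Ankrd37, -1.28 for Btbd3, -1.05 for Kcnj11, -0.84 for Gab1, -0.50 for Dag1 and -0.32 for Cs. The second Btg2 probe set changed by 2.00 at 1 h and 2.59 at 2 h, so that the probe sets of this gene disagree at 2 h.

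In 1 of 174 groups of 4 arrays checked, a single array stood apart from the other 3, where chance gives about 5%. It was Dusp7 in saline replicate 1, at 7.41 against at most 7.02 in the others. Ptgs2, given under the other observations, was not among the groups checked, and its KCN replicate 3 stood high above the other KCN hearts.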

How the results depend on the processing

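Leaving out 1 of the 8 arrays gave 200 to 412 rises (419 with all), 361 to 563 falls (676 with all), 23 to 43 genes called the same way on at least 2 probe sets (48 with all), 43 to 79 differences from HCN (53 with all) and 590 to 853 differences from KCN at 2 h (935 with all). The rises were 200 without KCN replicate 2, 212 without saline replicate 2, and 255 without KCN replicate 3 or saline replicate 4. The falls were 380 without KCN replicate 2 and 361 without saline replicate 2. Requiring a 1.5-fold change left 237 rises, 238 falls and 24 such genes. Averaging the probe sets of each gene gave 191 rises, 257 falls, 16 differences from HCN and 337 from KCN at 2 h, over genes instead of probe sets. Against the mean of the 5 saline groups there were 901 rises, 811 falls and 117 such genes, and with the airway covariate 430 falls and 25 such genes. The differences from HCN numbered 33 with a stricter filter and 125 with only the groups compared in the fit. Rises made up 38.3% of calls, against 50.5% (621 rises, 609 falls) with only the groups compared and 52.6% against the 5 saline groups. They made up 44.9% with arrays centred on their medians and 35.1% with quantile normalization.

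The sign turned in 4 gene values: the bright, uncalled probe sets of Hspb1 (-0.80) and Rab2a (-0.76) when read as the mean over their gene's probe sets, while the dim ones that fell kept their sign, Fam107a against the 5 saline groups (1.48), and Bpifa1 with the airway covariate, of which it is part (-0.081). Apart from these means, the causes were not tested. Of 89 called gene values, 87 were still called with quantile normalization, median centring or the replicate block, 76 with the actin covariate, 67 with the airway covariate and 64 to 80 without 1 array. Against the mean of the 5 saline groups 72 were still called. With the replicate number as a block, 449 probe sets rose and 685 fell. Deviations of same-numbered arrays correlated at 0.035 to 0.140. KCN replicates 3 and 4 each correlated best with the saline array of their own number, and KCN replicate 1 with saline replicate 4 (0.103). KCN replicate 2 correlated about equally with saline replicates 2 (0.0347) and 3 (0.0346). The main fit did not take the numbers as pairs, and whether they mark pairs was not tested. The number of arrays limits what could be called.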

Other observations

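Further genes rose on more than 1 probe set at 1 h, of which Igf1 and Ctsz were picked after their values were seen. Igf1, insulin-like growth factor 1, which resident macrophages and fibroblasts of the heart make, rose on 2 of 4 probe sets, by 0.91 ± 0.20 and 0.72 ± 0.19, and changed by 0.47 and 0.45 on the others. Ctsz, the lysosomal protease cathepsin Z, rose on 2 of 3 probe sets, by 0.59 ± 0.16 and 0.61 ± 0.16. Rps27l, a ribosomal protein paralog that p53 induces, rose on all 3 probe sets by 0.35 to 0.36, with KCN hearts at 10.72 to 10.88 and saline hearts at 10.16 to 10.57 on the brightest. The call of that brightest probe set was lost against the mean of the 5 saline groups. The KCN and saline hearts overlapped on every probe set of Igf1 and on the 2 called ones of Ctsz. Ptgs2, the inducible prostaglandin synthase, had 3.49, 3.84, 7.18 and 3.32 in KCN hearts and 2.94, 3.24, 3.52 and 3.14 in saline hearts on its brighter probe set, where KCN replicate 3 stood high and the change of 1.25 ± 0.44 did not pass (adjusted p = 0.098). Its dimmer probe set, at 2.69 to 4.38 in KCN hearts and 2.39 to 2.66 in saline hearts, rose by 0.77 ± 0.18.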
